A study of Mus musculus with 48 samples.

Results

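The 10 genes of the dual-specificity MAP kinase phosphatase family (Dusp1, Dusp2, Dusp4, Dusp5, Dusp6, Dusp7, Dusp8, Dusp9, Dusp10 and Dusp16) were followed across all 16 groups of 48 RNA-seq libraries. They were taken by symbol, and all 10 were found among 50764 gene entries. The libraries come from primary cells of 4 mouse lines, each heterozygous for a Cre-dependent BERKY3 biosensor, a luminescent protein that reports an active G protein alpha subunit and gives each line its name here. Gas cells were brain astrocytes, and Gai, Gaq and Ga13 cells were lung fibroblasts. In each line cells were stimulated for 90 min or received fresh medium alone for the same time. Astrocytes were stimulated with 1 µM isoproterenol, an agonist of beta-adrenergic receptors, and fibroblasts with 100 µM TRAP-6, a peptide agonist of the thrombin receptor PAR1. Within each state cells carried AAV2/1-CMV-Cre, which switches the biosensor on, or AAV2/1-CMV-empty, which leaves it off, at 1:500 in astrocytes and 1:1000 in fibroblasts. The 4 groups per line are therefore stimulated with Cre, stimulated with empty virus, unstimulated with Cre and unstimulated with empty virus, with 3 libraries each. All cells carried the biosensor allele and a virus, so effects of Cre and of the biosensor cannot be told apart. Labels number the replicates but do not say whether they are separate animals or cultures, so p-values measure the spread between these libraries, which may be technical.

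MAP kinases (ERK, JNK and p38) are switched on by phosphorylation of a threonine and a tyrosine in their activation loop, and these phosphatases remove both phosphates. Several of the genes are themselves induced when MAP kinase or cAMP signalling is activated, so that their products form negative feedback loops. The family is usually divided into inducible nuclear enzymes (Dusp1, Dusp2, Dusp4, Dusp5), cytoplasmic enzymes that prefer ERK (Dusp6, Dusp7, Dusp9) and enzymes that prefer JNK and p38 (Dusp8, Dusp10, Dusp16). Dusp1 is a textbook target of the cAMP-responsive factor CREB, and Dusp6 is a widely used transcript readout of ERK activity.

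To show the sequence in front of the genes with the largest changes described below, the RefSeq promoter windows of Dusp1, Dusp8, Dusp10 and Dusp6 are printed 5′ to 3′, from 250 bases before to 50 bases after the annotated start (build GRCm38.p6). Of the 10 genes 8 had a window in that table. Capitals mark the cAMP response element TGACGTCA and its short form TGACG, searched on both strands; TGACGTCA contains TGACG on each strand. The windows are chr17:26508423-26508722 (minus strand) for Dusp1, chr7:142095235-142095534 (minus strand) for Dusp8, chr1:184034131-184034430 (plus strand) for Dusp10 and chr10:99262981-99263280 (plus strand) for Dusp6.
Dusp1: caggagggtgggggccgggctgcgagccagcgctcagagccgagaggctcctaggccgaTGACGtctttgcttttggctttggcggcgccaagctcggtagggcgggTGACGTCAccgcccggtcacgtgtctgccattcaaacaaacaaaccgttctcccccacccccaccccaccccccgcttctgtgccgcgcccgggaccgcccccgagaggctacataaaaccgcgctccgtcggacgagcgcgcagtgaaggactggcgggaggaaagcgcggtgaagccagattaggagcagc
Dusp8: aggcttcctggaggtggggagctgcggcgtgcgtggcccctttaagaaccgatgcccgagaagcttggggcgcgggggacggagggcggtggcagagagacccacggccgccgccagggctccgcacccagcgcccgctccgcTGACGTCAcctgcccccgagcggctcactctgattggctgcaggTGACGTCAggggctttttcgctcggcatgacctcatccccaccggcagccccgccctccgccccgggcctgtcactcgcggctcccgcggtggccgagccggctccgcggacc
Dusp10: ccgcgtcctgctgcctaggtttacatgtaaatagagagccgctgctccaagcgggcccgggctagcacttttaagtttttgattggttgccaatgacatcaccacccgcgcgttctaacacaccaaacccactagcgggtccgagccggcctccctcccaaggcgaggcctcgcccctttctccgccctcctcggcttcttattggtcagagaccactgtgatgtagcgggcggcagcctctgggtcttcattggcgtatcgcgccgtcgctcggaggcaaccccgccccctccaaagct
Dusp6: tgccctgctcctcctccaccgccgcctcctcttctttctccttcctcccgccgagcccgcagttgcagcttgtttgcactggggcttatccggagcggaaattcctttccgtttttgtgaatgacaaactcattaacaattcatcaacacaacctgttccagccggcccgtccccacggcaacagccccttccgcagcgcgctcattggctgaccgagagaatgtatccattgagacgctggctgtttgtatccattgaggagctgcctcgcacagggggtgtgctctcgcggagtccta

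The full element TGACGTCA stood 143 bases before the start in Dusp1, and at 107 and 63 bases before it in Dusp8. Of all 32851 windows of this length 1.79% held it at least once and 0.0396% more than once. Dusp1 held a further TGACG apart from the full element, and Dusp2, Dusp5 and Dusp16 each held a single TGACG, a form found in 20.8% of windows. Dusp6, Dusp7 and Dusp10 held neither form in these windows. The AP-1 element TGANTCA was in none of the 8 windows, against 7.81% of all windows. The serum response element known as the CArG box was found 2 times in Dusp5 and in no other of the 8, against 1.63% of all windows with at least 1 match. These matches describe letters only and were not tested as binding sites.

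Total counts per library, in units of 1000000, were 15.6 to 42.6, with medians of 20.3 in Gas, 18.4 in Gai, 18.2 in Gaq and 21.7 in Ga13. The biosensor transcript held 19.1 to 137 CPM (counts per 1000000 counts of the library) in the 24 Cre libraries and 0 to 1.05 CPM in the 24 empty-virus libraries. By line the Cre libraries held 19.1 to 27.3 CPM in Gas, 106 to 137 in Gai, 74.3 to 101 in Gaq and 107 to 136 in Ga13. Summed over 11 astrocyte markers, Gas libraries held 10606 to 11743 CPM and fibroblast libraries 238 to 490.3 CPM; over 11 fibroblast markers, Gas libraries held 5037 to 6342 CPM and fibroblast libraries 48424 to 71652 CPM. Gas cultures also held 885 to 1060 CPM of oligodendrocyte lineage markers, 524 to 568 CPM of neuronal markers and 238 to 270.1 CPM of microglia and macrophage markers. The neuronal sum came mostly from Map2, Stmn2 and Tubb3 (means 391, 91.8 and 47.6 CPM), and the other neuronal markers averaged 0.427 (Rbfox3) to 9.53 CPM (Gad1). Smooth muscle and pericyte markers summed to 2322 to 2630 CPM, mostly Acta2 (mean 2088 CPM). The lung epithelium list summed to 307 to 361 CPM, mostly Foxj1 (mean 331 CPM). In these bulk samples fewer cells of a type and less RNA per cell cannot be told apart. In the Gai line the 4 libraries numbered 1, 1 from each group, stood apart from the other 8 on the first principal component (22.1% of variance; -24.6 to -15.6 against 1.46 to 19.9), so results of that line are given with and without them. F2r, which encodes PAR1, averaged 298 CPM in Gas cells and 419, 415 and 459 CPM in Gai, Gaq and Ga13 cells. Adrb1, the beta-1 receptor gene, averaged 48.1 CPM in Gas cells and 0.368, 0.284 and 0.259 CPM in Gai, Gaq and Ga13 cells.

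In resting cells the astrocytes and the fibroblasts held different members as the most abundant one. Levels per length, in CPM per kb of exon in the 6 unstimulated libraries of a line, are compared here between genes and carry no test. In fibroblasts Dusp4, a nuclear phosphatase of ERK and JNK, ranked first, with 329 ± 25.5 CPM per kb in Gai, 261 ± 16.9 in Gaq and 296 ± 12.2 in Ga13 (SD, n = 6 each). Dusp5, the nuclear ERK-specific phosphatase, followed with 114 ± 8.08 CPM per kb in Gai, 79.5 ± 12.1 in Gaq and 77.6 ± 3.41 in Ga13. Dusp1 and Dusp10 came next and their ranges over libraries overlapped in each fibroblast line; in Gai the range of Dusp1 also overlapped that of Dusp5. Below them came Dusp6 at 33.2 to 37.8 CPM per kb, Dusp7 at 8.65 to 9.41, Dusp16 at 6.30 to 7.26 and Dusp8 at 2.67 to 3.35, as means of the 3 lines. Neighbours in that lower order did not overlap, except Dusp7 and Dusp16 in Gai.

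In astrocytes no member stood far above the others. Dusp5 led with 39.2 ± 1.92 CPM per kb and overlapped with Dusp6 at 34.1 ± 4.06 (SD, n = 6 each). Dusp1 at 25.8 ± 1.45 overlapped with Dusp7, a cytoplasmic ERK phosphatase, at 23.9 ± 0.888 CPM per kb. Dusp4 held 17.4 ± 1.53 CPM per kb, far below its level in the fibroblasts, and Dusp10 held 4.07 ± 0.933 CPM per kb, against 56.4 to 90.02 in the fibroblast lines. Dusp7, Dusp8 and Dusp16 had higher levels in astrocytes, at 23.9, 5.73 and 9.52 CPM per kb, and none of their ranges overlapped with that of a fibroblast line. Dusp2, a nuclear phosphatase best known from lymphocytes, and Dusp9, an ERK phosphatase, were the lowest 2 members in all lines, at 0.254 to 0.819 and 0.181 to 0.539 CPM per kb. Across the 12 libraries of a line Dusp2 had 0.0547 to 1.68 CPM and Dusp9 0.0602 to 1.87 CPM, which corresponds to 1 to 54 counts of Dusp2 and 1 to 59 counts of Dusp9. Dusp2 did not pass the filter on low counts in Gaq, and no change of either gene is reported.

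**Figure D1:**
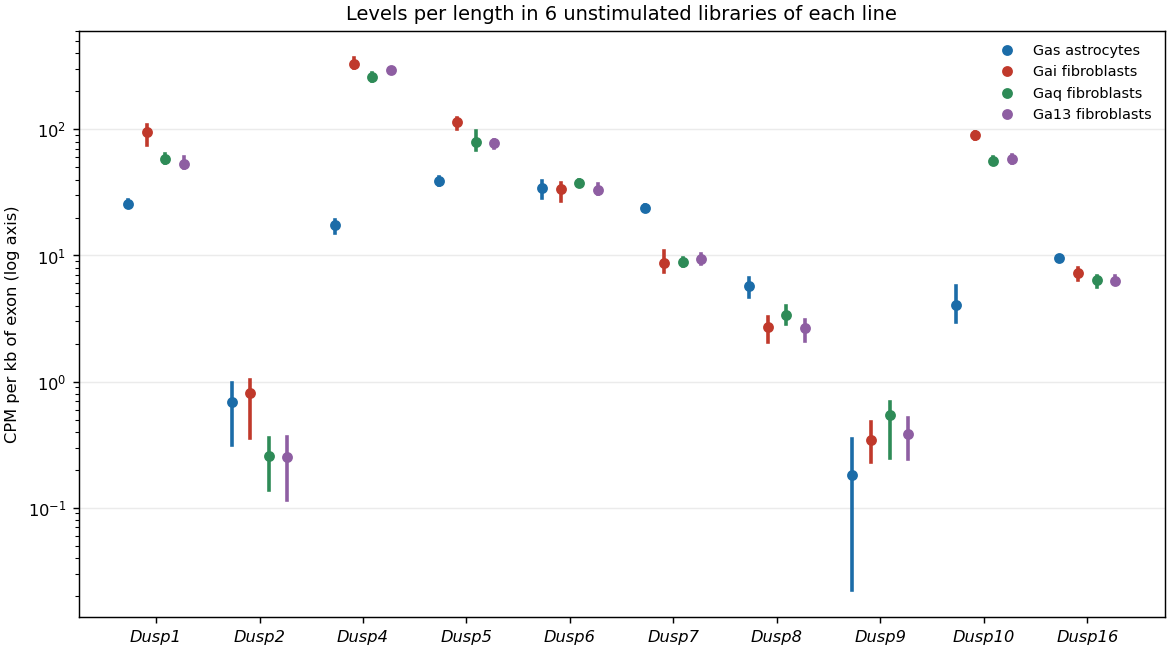
Level of each phosphatase transcript in CPM per kb of exon (log axis) in the unstimulated libraries of the 4 lines; points are means and bars the lowest to highest of 6 libraries. Dusp4 is the highest member in the 3 fibroblast lines, while Dusp5 and Dusp6 lead in astrocytes and Dusp2 and Dusp9 are lowest throughout.

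Isoproterenol changed most of the family in astrocytes, with Dusp1 and Dusp10 up and Dusp6 down by the largest amounts. The response is the mean of both viruses, tested with edgeR on 6 stimulated against 6 unstimulated libraries, and a gene was called at an adjusted p under 0.05 over all genes tested. Of the 10 members 6 rose and 1 fell, where 23.3% of all 18103 genes tested were called, 11.7% up and 11.5% down. The median log2 change was 0.32 over the 10 members, the low-count Dusp2 and Dusp9 included, and -0.00 over all genes. For 6 members the stimulated and unstimulated libraries did not overlap, against 14.7% of all genes.

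Among the nuclear phosphatases Dusp1 showed the largest response. Its level was 239, 247 and 259 CPM (lowest, median and highest of 6) in stimulated astrocytes, against 57.0, 60.5 and 65.9 CPM in unstimulated ones. All 6 stimulated libraries thus lay far above the unstimulated ones, a 4.18-fold rise (log2 2.07 ± 0.04, SE; edgeR adjusted p = 6.93e-30), and by p-value Dusp1 was number 4 of all genes in that response. Dusp4 had 62.0, 68.9 and 71.4 CPM with isoproterenol and 41.4, 47.5 and 52.3 CPM without it, with no overlap (log2 0.56 ± 0.05, edgeR adjusted p = 8.31e-11). Dusp5 likewise held 121, 130.1 and 142 CPM in stimulated and 89.4, 96.7 and 104 CPM in unstimulated astrocytes (log2 0.48 ± 0.04, edgeR adjusted p = 1.21e-11).

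The cytoplasmic ERK phosphatase Dusp6 went the other way. It held 22.0, 22.7 and 25.6 CPM (lowest, median and highest of 6) in stimulated astrocytes, against 79.5, 98.9 and 108 CPM in unstimulated ones. Every stimulated library was below every unstimulated one, and the level fell to 0.252 of the unstimulated level (log2 -1.99 ± 0.07, edgeR adjusted p = 1.10e-15). Dusp7, of the same subgroup, held 73.0 to 83.9 CPM with and 72.3 to 80.3 CPM without isoproterenol; the log2 difference was 0.09 with a 95% interval of 0.01 to 0.18 and was not called (edgeR adjusted p = 0.124). Without the stimulated Cre library numbered 3 that difference was 0.12 and was called (edgeR adjusted p = 0.042).

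All 3 phosphatases that prefer JNK and p38 rose. Dusp10 held 26.8, 28.0 and 28.9 CPM (lowest, median and highest of 6) in stimulated astrocytes, against 8.22, 11.2 and 15.9 CPM in unstimulated ones. The stimulated values were close together, and the highest unstimulated value, from the Cre group, lay above the other 5, which reached 11.9 CPM. The rise was 2.52-fold (log2 1.33 ± 0.11, edgeR adjusted p = 4.97e-08). Dusp8 held 42.4, 48.6 and 52.0 CPM with isoproterenol and 22.4, 27.7 and 31.9 CPM without it (log2 0.86 ± 0.06, edgeR adjusted p = 6.18e-14), again with no overlap. Dusp16 rose only slightly, with 72.5 to 82.2 CPM in stimulated and 69.2 to 73.7 CPM in unstimulated libraries, which overlapped (log2 0.16 ± 0.04, edgeR adjusted p = 5.31e-03).

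**Figure D2:**
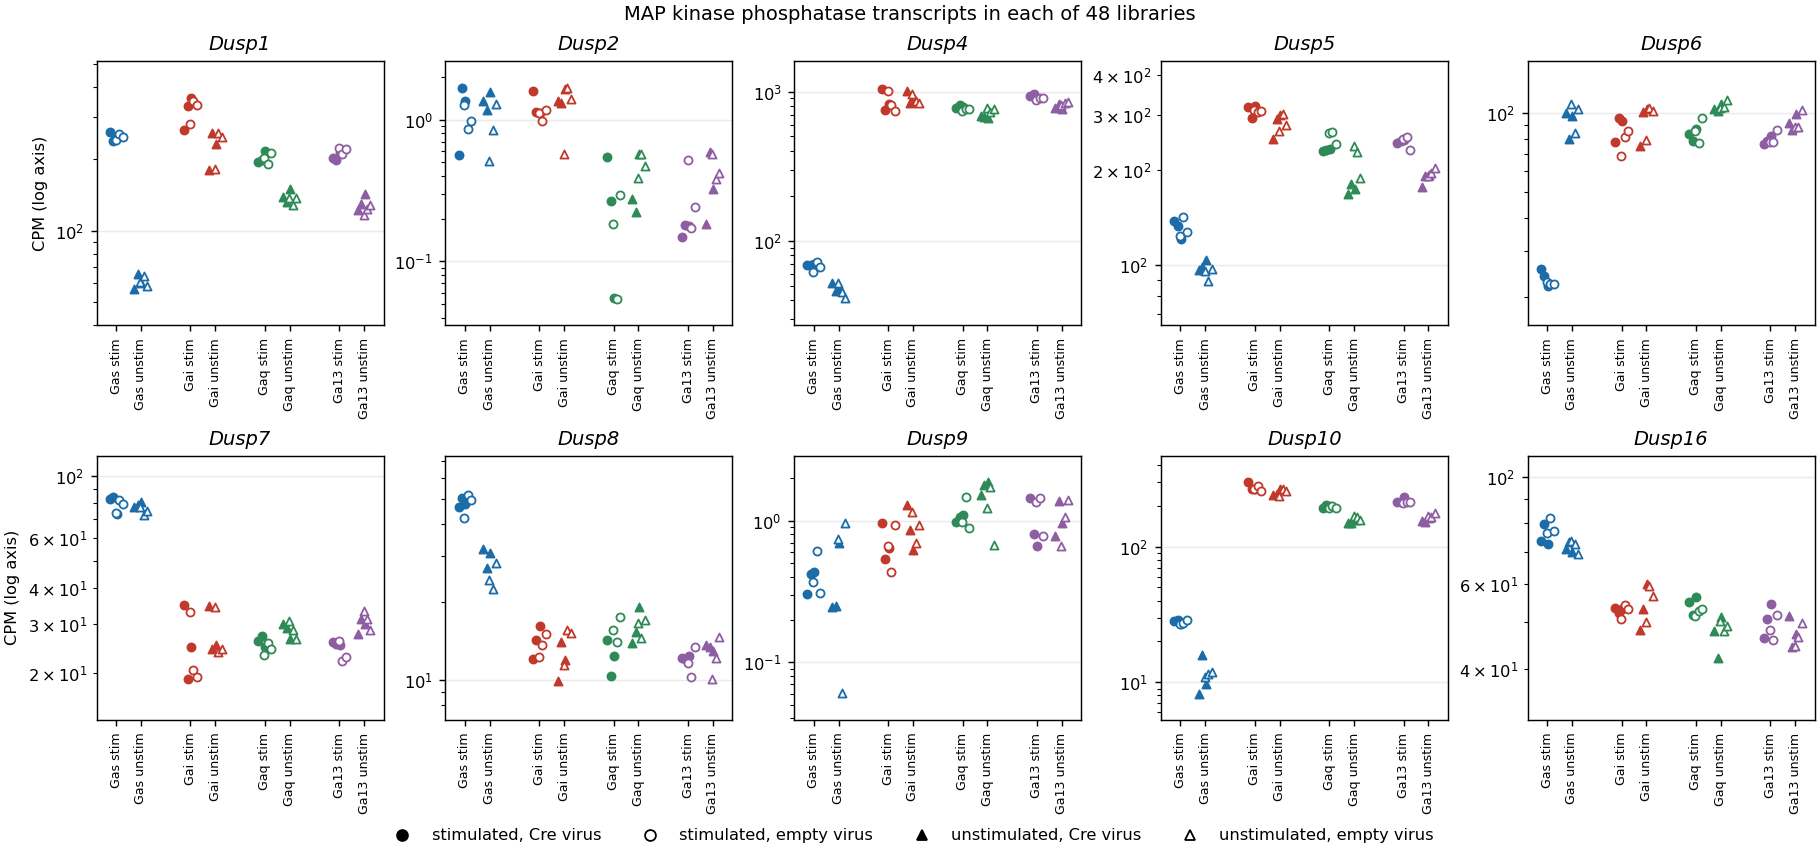
CPM of the 10 phosphatases in every library (log axis, each panel with its own range), by line and state; circles are stimulated, triangles unstimulated, filled Cre and open empty virus, 3 libraries per group. In astrocytes stimulated Dusp1 lies at 239 to 259 CPM, above the unstimulated 57.0 to 65.9 CPM, and stimulated Dusp6 at 22.0 to 25.6 CPM, below the unstimulated 79.5 to 108 CPM.

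TRAP-6 also changed several members in Gaq and Ga13 fibroblasts. In Gaq 5 members rose and 1 fell of the 9 tested, where 5.61% of 15528 genes were called (3.78% up, 1.83% down); the median log2 change was 0.16 over these members and -0.01 over all genes. In Ga13 4 rose and 2 fell of 10, where 8.38% of 15835 genes were called (4.69% up, 3.69% down), with medians of 0.08 and -0.00. The Ga13 member median includes both low-count genes, Dusp2 and Dusp9, and the Gaq one only Dusp9, so these medians do not compare the size of the responses. The stimulated and unstimulated libraries did not overlap for 4 members in Gaq, against 3.09% of genes, and for 6 in Ga13, against 5.58% of genes.

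Dusp1 again had the largest rise of the members. In Gaq it held 189.8, 200.3 and 216 CPM (lowest, median and highest of 6) in stimulated fibroblasts, against 129, 137 and 150.2 CPM in unstimulated ones (log2 0.60 ± 0.04, edgeR adjusted p = 3.33e-14). In Ga13 the values were 199, 211 and 223 CPM in stimulated and 117, 126 and 142 CPM in unstimulated libraries (log2 0.77 ± 0.03, edgeR adjusted p = 4.45e-18). The states did not overlap in either line, and by p-value Dusp1 was number 10 of all genes in Gaq and number 2 in Ga13.

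Dusp4 and Dusp5, the other nuclear members above the count filter, rose in both lines. Dusp4 held 744 to 810.5 CPM in stimulated and 667 to 771 CPM in unstimulated Gaq libraries, which overlapped (log2 0.16 ± 0.03, edgeR adjusted p = 1.31e-04). In Ga13 it held 874 to 959.5 CPM with and 767 to 846 CPM without TRAP-6, with no overlap (log2 0.22 ± 0.02, edgeR adjusted p = 3.57e-08). Dusp5 rose by log2 0.36 ± 0.05 in Gaq (edgeR adjusted p = 4.24e-05), with 230.1 to 263 CPM stimulated and 168 to 239 CPM unstimulated. In Ga13 the rise was 0.40 ± 0.03 (edgeR adjusted p = 1.29e-12), with 232 to 255 CPM stimulated and 177 to 203 CPM unstimulated.

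Dusp6 fell in both lines, as it did in astrocytes. In Gaq it held 77.3, 84.3 and 95.8 CPM in stimulated libraries, against 102, 105 and 112 CPM in unstimulated ones (log2 -0.29 ± 0.04, edgeR adjusted p = 6.16e-06). In Ga13 it held 76.4, 77.9 and 86.1 CPM in stimulated libraries, against 86.3, 89.9 and 103 CPM in unstimulated ones (log2 -0.18 ± 0.04, edgeR adjusted p = 3.57e-03). Neither pair overlapped, though in Ga13 the highest stimulated and lowest unstimulated values nearly met. Dusp7 fell in Ga13, with 22.1 to 26.1 CPM stimulated and 27.6 to 33.1 CPM unstimulated (log2 -0.26 ± 0.06, edgeR adjusted p = 1.24e-03). In Gaq its difference of -0.13 was not called (95% interval -0.26 to -0.01, edgeR adjusted p = 0.248).

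Of the phosphatases that prefer JNK and p38, Dusp10 rose in both lines. It held 191, 196 and 201 CPM in stimulated Gaq libraries, against 148, 157 and 167 CPM in unstimulated ones (log2 0.36 ± 0.03, edgeR adjusted p = 2.28e-10). The Ga13 values were 208, 213 and 233 CPM with TRAP-6 and 152, 165 and 176 CPM without it (log2 0.44 ± 0.03, edgeR adjusted p = 1.47e-13), so neither line overlapped. Dusp16 rose in Gaq by 0.19 ± 0.05 (edgeR adjusted p = 7.19e-03) and had a difference of 0.11 in Ga13 that was not called (95% interval 0.01 to 0.21, edgeR adjusted p = 0.172). Dusp8, which rose in astrocytes, had differences of -0.16 in Gaq and -0.05 in Ga13 with 95% intervals of -0.34 to 0.02 and -0.22 to 0.11.

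In Gaq and Ga13 the summed astrocyte markers, at 310 to 332 and 291 to 324 CPM in stimulated and 260 to 290 and 238 to 270.2 CPM in unstimulated libraries, did not overlap between states. The same held in Ga13 for the 9 oligodendrocyte lineage markers, at 64.7 to 81.8 CPM stimulated and 84.9 to 89.8 CPM unstimulated. In Gaq and Ga13 the astrocyte sum came mostly from Gja1 (means 96.6 and 93.7 CPM), Glul (89.0 and 85.6) and Sox9 (84.5 and 77.1). Gfap and Aqp4 averaged at most 0.624 CPM there. In Ga13 the oligodendrocyte lineage sum came mostly from Cspg4, Mbp and Cnp (37.6, 31.1 and 10.5 CPM), with Olig1, Olig2 and Mog at 0. These sums are not read as astrocyte or oligodendrocyte content, and their part in these results was not tested. The other 9 marker lists, those of fibroblasts, smooth muscle and pericytes and mesothelium among them, overlapped between states in all 4 lines.

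In the Gai line no member was called by the main test, and a Dusp1 rise was called by other settings. The edgeR test called 0 of 10 members, where 1.12% of 15980 genes were called; 3 members had an unadjusted p under 0.05, and DESeq2 called 1, Dusp1. Dusp1 held 266, 333 and 362 CPM in the stimulated Cre libraries and 281, 351 and 337 CPM in the stimulated empty-virus libraries. Unstimulated libraries held 179.7, 258 and 231 CPM with Cre and 181, 256 and 246 CPM with empty virus. All 6 stimulated values lay above all 6 unstimulated ones, where 1.73% of genes had no overlap between states in either direction. The log2 difference was 0.53 ± 0.13 (95% interval 0.24 to 0.81, edgeR adjusted p = 0.110). With DESeq2 the log2 difference was 0.53 (adjusted p = 1.43e-04), and edgeR without robust estimation gave an adjusted p of 0.0215. Dusp5 and Dusp10 were the other 2 members with an unadjusted p under 0.05, with differences of 0.16 (95% interval 0.05 to 0.26) and 0.13 (0.02 to 0.23).

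The 4 Gai libraries numbered 1 lay apart from the other 8 in both states for 5 members, below them for Dusp1, Dusp6 and Dusp8 and above them for Dusp4 and Dusp7. The same held, in either direction, for 17.1% of all 15980 genes tested. For example, Dusp7 had 33.0 and 34.8 CPM in the stimulated libraries numbered 1 and 19.2 to 24.9 CPM in the other 4 stimulated ones, and 34.3 and 34.7 CPM against 23.7 to 25.2 CPM among the unstimulated ones. The libraries numbered 1 also held more of the summed fibroblast markers, 60972 to 64179 CPM against 48424 to 53720 CPM in the other 8. Their astrocyte, microglia and macrophage, and oligodendrocyte lineage marker sums were likewise above those of the other 8 libraries, at 417 to 490.3 CPM, 193 to 225 CPM and 55.9 to 65.7 CPM, against 366 to 408 CPM, 152 to 179 CPM and 46.6 to 52.5 CPM. Most of the astrocyte sum in this line came from Glul, Sox9 and Gja1 (means 169, 103 and 98.9 CPM), with Gfap at 0.460 and Aqp4 at 0. Olig1 and Mog were at 0 CPM, so these sums are not read as astrocyte or oligodendrocyte content. The part of these differences in the results was not tested.

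Without the libraries numbered 1, a choice made after seeing the data, edgeR called 3 Gai members, where 4.39% of 16024 genes were called, against 1.12% with all 12 libraries. Dusp1 rose by log2 0.48 (edgeR adjusted p = 1.56e-10), Dusp6 fell by 0.21 on the log2 scale (edgeR adjusted p = 0.00105) and Dusp4 fell by 0.13 (edgeR adjusted p = 0.0218). With all 12 libraries the Dusp6 and Dusp4 differences were -0.16 (95% interval -0.39 to 0.07) and -0.04 (-0.27 to 0.19). A replicate block on all 12 libraries also called Dusp1 and Dusp6, though the numbers were not taken as pairing the libraries. Dusp10, which rose in the other 2 fibroblast lines, had a difference of 0.04 without the libraries numbered 1 and was not called (edgeR adjusted p = 0.666).

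**Figure D3:**
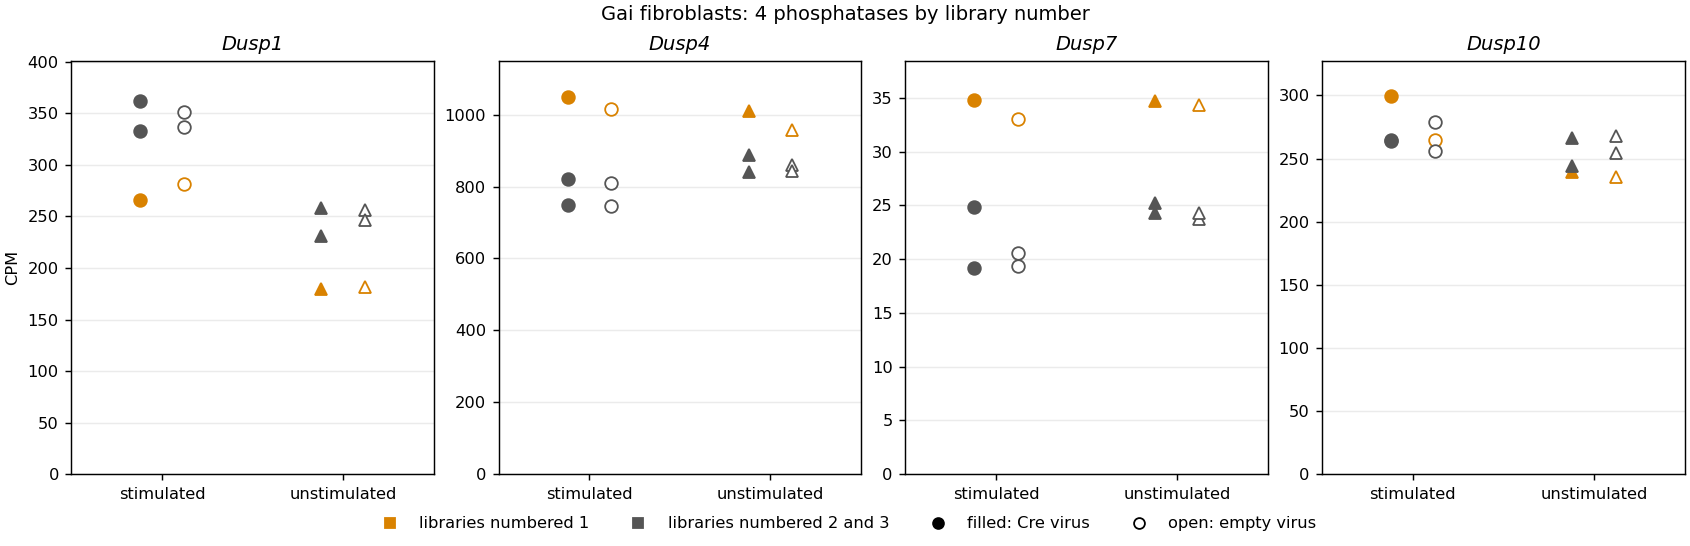
CPM of Dusp1, Dusp4, Dusp7 and Dusp10 in the 12 Gai fibroblast libraries, stimulated left and unstimulated right; orange marks the libraries numbered 1, filled symbols Cre and open symbols empty virus. Orange points are the lowest for Dusp1 and the highest for Dusp4 and Dusp7 in both states, and stimulated Dusp1 values (266 to 362 CPM) stay above unstimulated ones (179.7 to 258 CPM).

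Direct tests between the fibroblast lines found 1 member whose TRAP-6 response differed. In a joint fit of 36 libraries the Dusp10 response was lower in Gai than in Ga13, by log2 -0.31 ± 0.05 (edgeR adjusted p = 0.00102), the only one of 10 members called there where 0.316% of 16749 genes were called and 0.287% were lower in Gai. Its stimulated and unstimulated means were 271 ± 15.8 and 251 ± 13.9 CPM in Gai and 216 ± 8.95 and 163 ± 8.81 CPM in Ga13 (SD, n = 6 each). Between Gai and Gaq the Dusp10 difference was -0.23 ± 0.05 and was not called (edgeR adjusted p = 0.0581). The edgeR count for Gai against Gaq was 0 of 10 members (0.137% of genes called), with 4 at an unadjusted p under 0.05 and 1 called by DESeq2. That 1 was Dusp10, which edgeR also called with any one of the 4 Gai libraries numbered 1 left out (adjusted p 0.00687 to 0.0471) or without the stimulated Ga13 Cre library numbered 3 (adjusted p = 0.0497). Between Gaq and Ga13 0 of 10 members and 0% of genes were called, with no member and 851 genes at an unadjusted p under 0.05 and 0 genes by DESeq2. The 95% interval of that difference was -0.42 to 0.08 for Dusp1 and -0.19 to 0.03 for Dusp10. In these comparisons line and culture differ together and cannot be told apart. The lines also differ in microglia and macrophage markers, at 152 to 225 CPM in Gai and 37.8 to 51.7 CPM in Ga13, whose part was not tested.

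When the 4 Gai libraries numbered 1 were left out of the joint fit, 4 members were called between Gai and Ga13, where 1.64% of 16995 genes were called. Their responses were lower in Gai by log2 -0.29 for Dusp1, -0.35 for Dusp4, -0.33 for Dusp5 and -0.40 for Dusp10 (edgeR adjusted p = 0.00109, 1.76e-07, 0.0031 and 1.75e-07). With all libraries the differences of Dusp1, Dusp4 and Dusp5 were -0.24, -0.25 and -0.24 and were not called. Between Gai and Gaq the same fit also called 4 members, where 0.777% of genes were called. There the responses were lower in Gai by log2 -0.29 for Dusp4, -0.29 for Dusp5, -0.32 for Dusp10 and -0.29 for Dusp16 (edgeR adjusted p = 2.69e-05, 0.0256, 4.43e-05 and 0.0316). Between Gai and Ga13, leaving out single libraries called Dusp4 without the stimulated Gai Cre library numbered 1 (-0.33, adjusted p = 0.0428). It called Dusp5 without the unstimulated Gai Cre library numbered 1 (-0.28, adjusted p = 0.0166) or the unstimulated Gaq empty-virus library numbered 3 (-0.24, adjusted p = 0.0327).

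The isoproterenol response of astrocytes exceeded the mean TRAP-6 response of the 3 fibroblast lines for 5 members and lay below it for 1. This joint fit of 48 libraries called 6 of 10 members, where 14.8% of 19316 genes were called (7.67% up, 7.15% down). The difference was log2 1.43 ± 0.09 for Dusp1 (edgeR adjusted p = 3.41e-15), 1.02 ± 0.08 for Dusp10 and 0.90 ± 0.10 for Dusp8. It was 0.45 ± 0.08 for Dusp4 and 0.18 ± 0.05 for Dusp5 (edgeR adjusted p = 0.0159). Dusp6 differed by -1.78 ± 0.10 (edgeR adjusted p = 2.51e-17); it fell in astrocytes and in the Gaq and Ga13 fibroblasts. Agonist, cell type, virus dilution, plating density and line differ together in this comparison and cannot be told apart.

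**Figure D4:**
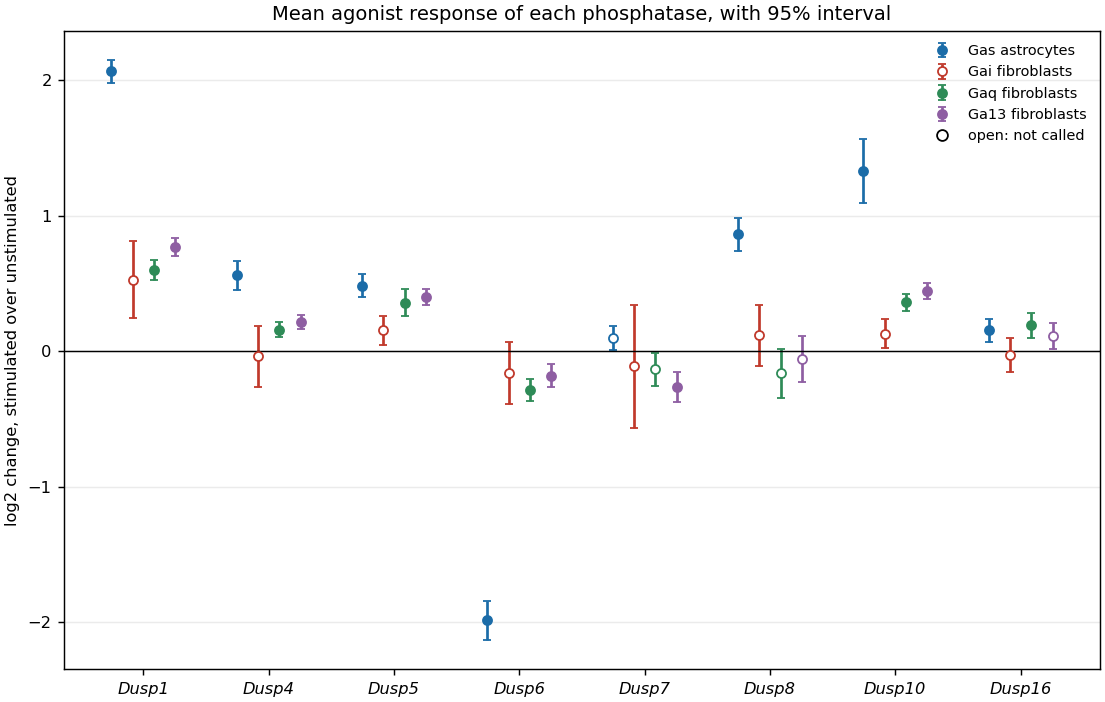
Log2 change (stimulated over unstimulated, mean of both viruses) of the 8 phosphatases above the low-count range in each line, with 95% intervals from the edgeR fit on 12 libraries per line; filled points are called at an adjusted p under 0.05. Astrocytes show the widest spread, from -1.99 (Dusp6) to 2.07 (Dusp1), and Ga13 fibroblasts range from -0.26 (Dusp7) to 0.77 (Dusp1).

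Members were called between Cre and empty virus in 1 of 4 lines, resting Gaq fibroblasts. That difference was not tested between lines, and effects of Cre and of the biosensor cannot be told apart. In resting Gaq cells Dusp4 and Dusp5 fell among 9 members tested, where 2.65% of genes were called and 1.37% fell. An unadjusted p under 0.05 was found for 3 members. Dusp5 held 168, 181 and 174 CPM with Cre, against 239, 228 and 189 CPM with empty virus (log2 -0.32 ± 0.07, edgeR adjusted p = 0.0105). Dusp4 held 686, 673 and 667 CPM with Cre, against 771, 735 and 762 CPM with empty virus (log2 -0.16 ± 0.04, edgeR adjusted p = 0.0176). Dusp10, which was not called, held 148 to 157 CPM with Cre and 158 to 167 CPM with empty virus. The Dusp5 call was lost without the Cre library numbered 1 (-0.30, adjusted p = 0.0600) or the empty-virus library numbered 2 (-0.29, adjusted p = 0.120). The Dusp4 call was lost without the empty-virus library numbered 1 (-0.14, adjusted p = 0.100) or the Cre library numbered 2 (-0.16, adjusted p = 0.0816) or 3 (-0.14, adjusted p = 0.108). Of the 11 marker lists 3 did not overlap between these groups. Fibroblast markers summed to 64885 to 69468 CPM with Cre and 58131 to 60663 CPM with empty virus, and the 5 mesothelium markers to 466 to 529 CPM and 363 to 453 CPM. The 7 receptor genes of the agonists summed to 393 to 406 CPM with Cre and 436 to 452 CPM with empty virus. The part of these differences in the Dusp4 and Dusp5 values was not tested.

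With TRAP-6 neither gene was called between the Gaq groups. Dusp5 held 230.1, 231 and 233 CPM with Cre and 261, 263 and 242 CPM with empty virus (log2 -0.14 ± 0.07, edgeR adjusted p = 0.384). Dusp4 held 776, 810.5 and 793 CPM with Cre and 744, 764 and 769 CPM with empty virus, so that Cre values were the higher ones (log2 0.07 ± 0.04, edgeR adjusted p = 0.445). The response itself was larger with Cre for Dusp4 by 0.23 ± 0.06 on the log2 scale, which was not called (95% interval 0.12 to 0.34, edgeR adjusted p = 0.113). DESeq2 called it (0.23, adjusted p = 0.00624), as did edgeR without the unstimulated empty-virus library numbered 2 (0.25, adjusted p = 0.036). For Dusp5 the difference between the responses was 0.19 (95% interval -0.01 to 0.38, edgeR adjusted p = 0.752). For stimulated Gaq cells edgeR and DESeq2 called 0 of 9 members (3.41% of genes; 1 member at an unadjusted p under 0.05). For the difference between the Gaq responses edgeR called 0 of 9 (0.161% of genes; 2 at an unadjusted p under 0.05).

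In the other lines edgeR and DESeq2 called 0 of 10 members with Cre against empty virus in either state and 0 in the difference between the responses. Gas astrocytes had 1 member at an unadjusted p under 0.05 in the unstimulated state, Dusp8, and none in the stimulated state (0.00552% and 0.0166% of genes called). The Dusp8 difference was 0.26 with a 95% interval of 0.08 to 0.44 (edgeR adjusted p = 0.694). Gai had none in either state, where 0% of genes were called, and Ga13 had 2, Dusp4 and Dusp10, in the unstimulated state and none in the stimulated state (0.00632% and 0.0379% of genes called). The difference between the responses had 1 such member in Gas, 0 in Gai and 3 in Ga13 (0%, 0% and 0.0821% of genes called). In Ga13 Dusp4 averaged 935 CPM stimulated and 787 CPM unstimulated with Cre, and 897 and 832 CPM with empty virus. With a replicate block edgeR called Dusp4 in this Ga13 difference. Resting Ga13 Dusp10 held 152 to 163 CPM with Cre and 166 to 176 CPM with empty virus, and Dusp4 767 to 822 CPM and 810 to 846 CPM. Over the 8 members above the low-count range the 95% intervals of the Cre difference spanned at most -0.35 to 0.44 in Gas and -0.23 to 0.34 in Ga13. In Gai they reached from -0.60 to 0.73, both for Dusp7, in which the libraries numbered 1 stand apart.

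**Figure D5:**
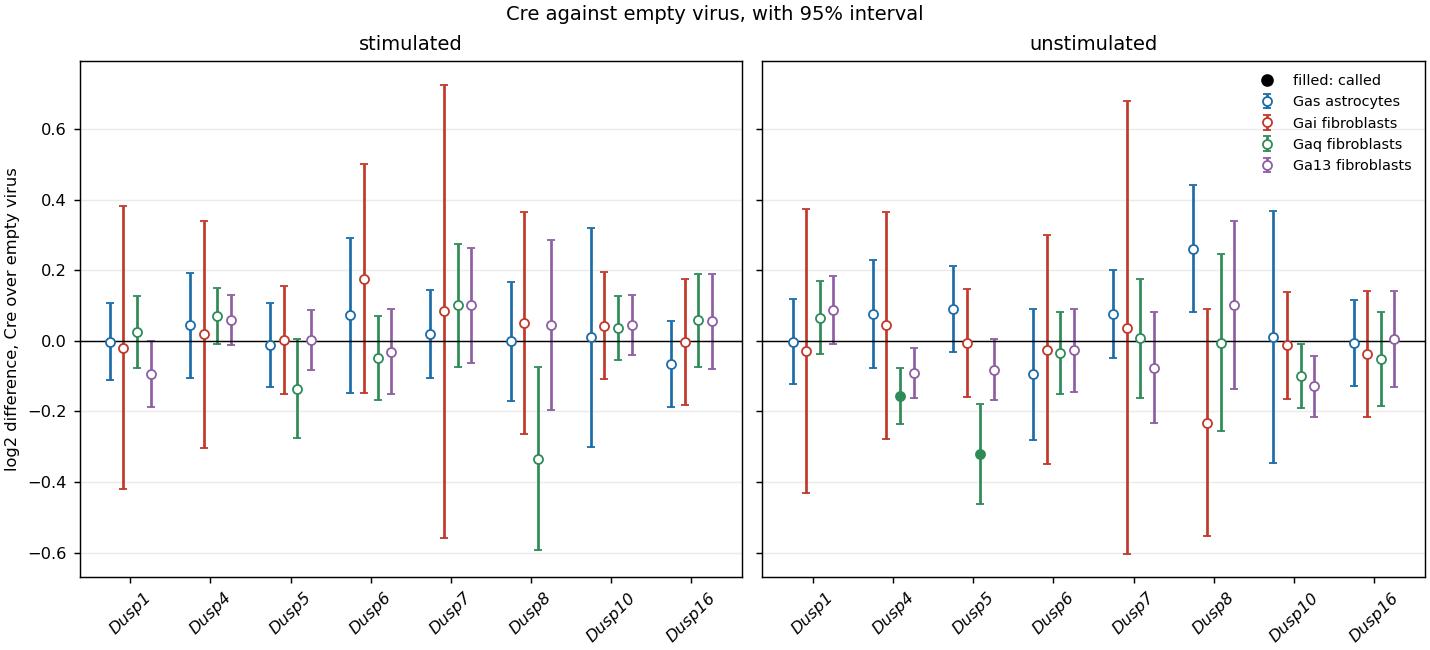
Log2 difference of Cre over empty virus for 8 phosphatases in each line, in stimulated (left) and unstimulated (right) cells, with 95% intervals from the edgeR fit on 12 libraries per line; filled points are called. Resting Gaq Dusp4 (-0.16) and Dusp5 (-0.32) are the only filled points.

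Over the 16 group means, centred within each line, Dusp1 and Dusp10 followed each other closely and Dusp6 ran opposite to both. Pearson's r was 0.978 for Dusp1 with Dusp10, -0.954 for Dusp1 with Dusp6 and -0.969 for Dusp6 with Dusp10. Dusp7 was least tied to Dusp6, its relative among the cytoplasmic enzymes (r = 0.0776). Among 11376 genes with a mean of at least 1 CPM in each line, the most alike were Fzd5 and Rnf217 for Dusp1 (0.996 and 0.994) and Nr4a3 and Nr4a2 for Dusp10 (0.993 and 0.991). For Dusp6 they were Klf3 and Bcar1 (0.989 and 0.987), for Dusp4 Ankrd9 and Gadd45b (both 0.964) and for Dusp5 Dot1l and Dnajb2 (0.964 and 0.956). The least close partners were those of Dusp16, Hivep1 and Clk1 (0.917 and 0.891), of Dusp7, Unk and B9d2 (0.934 and 0.929), and of Dusp8, Tmem198 and Chst15 (0.953 and 0.937). These values share the same libraries, and the astrocyte response weighs most in them; Fzd5, Rnf217, Klf3, Dot1l, Tmem198 and Chst15 overlap another annotated gene, which leaves their counts uncertain.

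Genes of the kinase cascade upstream and downstream of these phosphatases are given for comparison; over all genes 23.3% were called in Gas, 1.12% in Gai, 5.61% in Gaq and 8.38% in Ga13. Of 14 MAP kinase genes 1 rose and 3 fell in Gas, with Mapk4, an atypical MAP kinase, at log2 0.72 ± 0.08 and Mapk7, the gene of a large ERK-type kinase, at -0.56 ± 0.06. None of the 12 tested in Gai and Gaq was called, and in Ga13 2 fell. Of 7 MAP kinase kinases 1 rose and 1 fell in Gas, where Map2k3, an activator of p38, fell (-0.61 ± 0.05). Map2k4, an activator of JNK and p38, rose in Gas (0.17 ± 0.04), Gaq (0.23 ± 0.05) and Ga13 (0.29 ± 0.03). Among 19 RAF and MAP3 kinases tested in Gas 4 rose and 5 fell, led by Map3k13 (2.21 ± 0.10), a JNK pathway kinase, and Map3k14 (-1.23 ± 0.08), the NF-kB-inducing kinase. Gaq had 2 up and 1 down and Ga13 1 up and 3 down of 19; Map3k14 fell in both (-0.58 ± 0.09 and -0.62 ± 0.09) and Map3k8, an activator of ERK signalling, rose in both (0.51 ± 0.12 and 0.51 ± 0.13). Of 11 kinases downstream of MAP kinases 3 rose and 1 fell in Gas, among them Mknk2 (0.60 ± 0.04) and Mapkapk2 (0.50 ± 0.04), and 1 rose in Gaq. Of 9 scaffold genes 1 was called in Gas, Spag9 (0.12 ± 0.04), and none of the 7 tested in the fibroblast lines.

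Among phosphatases outside the family, the share called in Gas lay near or below the 23.3% of all genes. Over all genes 5.61% were called in Gaq and 8.38% in Ga13. Of 11 other phosphatases of MAP kinases 2 rose in Gas, with Ptpn5, a tyrosine phosphatase of ERK and p38, at 1.23 ± 0.16. Ppp2ca, a catalytic subunit of a serine/threonine phosphatase, rose in Gaq (0.11 ± 0.03) and Ga13 (0.13 ± 0.03). It was the only 1 called in either line, of 9 tested in Gaq and 8 in Ga13. Of 13 atypical dual-specificity phosphatases, which lack the kinase-binding domain, 2 rose and 1 fell in Gas. Dusp14 rose by 1.38 ± 0.05 in Gas, by 0.51 ± 0.12 in Gaq and by 0.60 ± 0.10 in Ga13. Dusp18 had opposite signs in the 2 cell types, with -0.25 ± 0.04 in Gas, 0.52 ± 0.05 in Gaq and 0.58 ± 0.05 in Ga13. Dusp14 and Dusp18 were the only atypical phosphatases called in Gaq and in Ga13, 2 of 11 tested in each line, and none was called in Gai.

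Lists of genes known to respond to ERK or to cAMP are given for comparison. These lists, like those of kinases and phosphatases above, were chosen with earlier results of these data known, so their counts are descriptive. Of 42 ERK-responsive transcripts 15 rose and 21 fell in Gas, 4 rose and 2 fell in Gai, 20 rose and 4 fell in Gaq and 25 rose and 5 fell in Ga13. Over all genes 11.7% rose and 11.5% fell in Gas, 3.78% and 1.83% in Gaq and 4.69% and 3.69% in Ga13, and 1.12% were called in Gai. The median log2 changes of the list were -0.13, 0.11, 0.14 and 0.27. In Gas the called genes with the smallest p were Fos (2.81 ± 0.05), Maff and Fosl2, all AP-1 or related factors, and Myc led in Ga13 (0.64 ± 0.03). In Gaq Atf3 led (0.72 ± 0.04), with Myc among the first 3 (0.50 ± 0.04). In Gai Spry4, an inhibitor of receptor tyrosine kinase signalling to ERK, had the smallest p and fell (-0.60 ± 0.08), followed by the rises of Mcl1 (0.28 ± 0.05) and Myc (0.33 ± 0.05). Of the cAMP and CREB transcripts 21 of 25 rose and 4 fell in Gas, 14 rose and 2 fell of 22 in Gaq, 13 rose and 2 fell of 22 in Ga13 and 4 of 21 rose in Gai. Their medians were 2.12 in Gas, 0.45 in Gaq, 0.45 in Ga13 and 0.25 in Gai, beside medians between -0.01 and -0.00 over all genes. The ERK and cAMP lists share some genes, Fos among them. Fos also had the smallest p of the cAMP and CREB list in Gas, followed by Rgs2 (2.12 ± 0.04) and Cartpt (7.38 ± 0.17). Of these named genes outside the family, Mapk4, Mapk7, Map2k4, Map3k13, Map3k14, Mapkapk2, Spag9, Ptpn5, Ppp2ca, Atf3 and Spry4 overlap another annotated gene.

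The counts of some members are also uncertain for that reason, since the strand setting of the counting is not given. Dusp1 overlaps Ergic1 on the opposite strand, and also 2 annotated genes on its own strand that have no entry in the count tables. Ergic1 held 209.8 to 219 CPM in stimulated and 182 to 210.1 CPM in unstimulated astrocytes, and 202 to 228 CPM with and 207 to 227 CPM without TRAP-6 in the fibroblasts. The gene 1700056E22Rik, opposite Dusp10, reached 4.36 CPM. Gm8225, opposite Dusp1, Gm32786, opposite Dusp8, and Gm36328, opposite Dusp16, reached at most 1.53, 0.234 and 0.184 CPM. Dusp5 overlaps a gene on the opposite strand that has no entry in the count tables, and Dusp2, Dusp4, Dusp6, Dusp7 and Dusp9 overlap none.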

How the data were processed

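Poly-A selected RNA of 48 libraries was measured, in 16 groups of 3. The authors deposited 1 table of raw counts per line, and every value in it was a whole number of reads. Per the submitters' processing notes, fastp, Subread, featureCounts and the build GRCm39 were used; versions, gene annotation and strandedness are not given in the sources used here. The local GENCODE M21 annotation and RefSeq promoter windows are of the earlier build GRCm38, so they served only for exon lengths, overlapping genes and promoter letters. Per the labels' protocols, astrocytes were plated at 430000 and fibroblasts at 160000 cells per well.

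Each line was fitted on its own in R 4.3.3 with edgeR 4.0.16 (filterByExpr, TMM scaling, robust quasi-likelihood F test, Benjamini-Hochberg adjustment over all genes tested, called at an adjusted p under 0.05, two-sided). The entry of the biosensor was left out of the fits. The standard error is the log2 change divided by the square root of F. Per line 4 contrasts were tested: the mean agonist response, Cre against empty virus in each state, and the difference between the responses. Joint fits of 36 fibroblast libraries and of all 48 compared responses between lines. CPM are counts per 1000000 of the library total, and CPM per kb divide by exon length in GENCODE M21. Likeness of patterns is Pearson's r over 16 group means of log2 CPM (prior count 2), centred within each line. Alternatives were DESeq2 1.42.0, its size factors within edgeR, no filter, no robust estimation, a replicate block and leaving out each library.

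On simulated data the test recovered 97 of 100 genes changed by a log2 of 1 in the Gas mean response. It recovered 82 of 100 changed by 0.5. In the Gai mean response these numbers were 96 and 72 of 100. Of the unchanged genes 12 were called in Gas and 8 in Gai, in fits of 17837 and 15775 genes with the changed ones included. These false calls stand beside the 97 and 82 genes recovered in Gas and the 96 and 72 in Gai. Recovery with a shift like that of the Gai libraries numbered 1 was not tested, so the Gai numbers may not hold for the measured libraries. Total counts of 15.6 to 42.6, in units of 1000000, set the counting precision; no 2 libraries of a group agreed within sampling noise.

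The members, the 9 gene lists and the 11 marker lists were chosen with earlier results of these data known. All 10 members are named. From each list up to 3 called genes with the smallest p in the mean response of a line could be named, and for each member the 2 genes most like it.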

Additional observations from a re-analysis of the deposited data

Results flagged for a closer look

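The TRAP-6 response of Dusp10, a phosphatase of JNK and p38, differed between fibroblast lines by a test of the difference itself. It was lower in Gai than in Ga13 by a log2 of -0.312 (SE 0.05, edgeR adjusted p = 0.00102). Line and culture cannot be told apart in this difference. In Gai libraries Dusp10 held 256 to 299.8 CPM stimulated and 236 to 268 CPM unstimulated, and in Ga13 libraries 208 to 233 CPM stimulated and 152 to 176 CPM unstimulated. Over the 36 fits that left out 1 library the difference stayed between -0.35 and -0.29, with adjusted p of 7.97e-05 to 0.00447, and without all 4 Gai libraries numbered 1 it was -0.40.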

How the results depend on the processing

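The calls of members in the Gas, Gaq and Ga13 mean responses and in the comparison of isoproterenol with TRAP-6 stayed within 1.5 times their number under the alternatives run. DESeq2 called 1 member in the Gai response, 1 in the difference between the Gaq responses, 1 in Gai minus Gaq and 2 in Gai minus Ga13. Over all genes it called 2 for Cre in unstimulated Gas, 293 in the Gai response, 1 and 2 for Cre in unstimulated and stimulated Gai, 41 in the Gaq difference, 6 and 29 for Cre in unstimulated and stimulated Ga13, 57 in the Ga13 difference, 47 in Gai minus Gaq and 96 in Gai minus Ga13. Its size factors within edgeR called 1 member in Gai minus Gaq. Without the filter on low counts 1 member was called in the Gai response (Dusp5), 1 in the Gaq difference, 1 in Gai minus Gaq and 2 in Gai minus Ga13. Over all genes these were 12 for Cre in unstimulated Gas, 445 in the Gai response, 6 and 9 for Cre in unstimulated and stimulated Gai, 2 in the Gai difference, 67 in the Gaq difference, 33 and 62 for Cre in unstimulated and stimulated Ga13, 86 in the Ga13 difference, 57 in Gai minus Gaq, 121 in Gai minus Ga13 and 2 in Gaq minus Ga13. Without robust estimation 1 member was called in the Gai response, and over all genes 0 for Cre in stimulated Gas and 8 in the Ga13 difference. With Gai numbers 2 and 3 only, chosen after seeing the data, 3 members were called in the Gai response and 4 each in Gai minus Gaq and Gai minus Ga13. Over all genes that setting called 703 in the Gai response, 14 and 7 for Cre in unstimulated and stimulated Gai, 132 in Gai minus Gaq and 279 in Gai minus Ga13. The cause of these changes was not tested.

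The replicate numbers were not taken as pairing the libraries, which would need a correlation of same-numbered deviations over 0.1 in every pair: 1 of 18 pairs in Gas, 8 in Gai, 0 in Gaq and 1 in Ga13 had one. The 6 Gai pairs numbered 1 all did, at 0.252 to 0.306. As a hint from the data only, 10, 5, 9 and 11 of the 12 libraries of these lines correlated best with their own number. With the replicate block 2 members were called in the Gai response (Dusp1 and Dusp6), 1 in the Gaq difference and 1 in the Ga13 difference (Dusp4 in both), 2 in Gai minus Gaq and 3 in Gai minus Ga13. Over all genes the block gave 797 calls in the Gai response, 11 and 9 for Cre in unstimulated and stimulated Gai, 752 and 944 for Cre in unstimulated and stimulated Gaq, 91 in the Gaq difference, 33 and 112 for Cre in unstimulated and stimulated Ga13, 138 in the Ga13 difference, 161 in Gai minus Gaq, 288 in Gai minus Ga13 and 7 in Gaq minus Ga13.

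Leaving out 1 library at a time gave 1 to 2 members for Cre in unstimulated Gaq, 0 to 1 in the Gaq difference, 0 to 1 in Gai minus Gaq and 1 to 2 in Gai minus Ga13. Counts over all genes ranged from 1 to 4 and 0 to 3 for Cre in unstimulated and stimulated Gas, 0 to 3 for Cre in stimulated Gai, 262 to 523 and 283 to 642 for Cre in unstimulated and stimulated Gaq, 7 to 43 in the Gaq difference, 0 to 4 and 2 to 13 for Cre in unstimulated and stimulated Ga13, 3 to 22 in the Ga13 difference, 5 to 49 in Gai minus Gaq and 33 to 104 in Gai minus Ga13. Differences near 0 changed sign: the Gai response of Dusp4 (-0.118 to 0.0142) without the stimulated Cre library 2 or empty-virus library 3, that of Dusp16 (-0.0686 to 0.0174) without the unstimulated empty-virus library 2 or Cre library 3, and the Ga13 response of Dusp8 (-0.112 to 0.0138) without the unstimulated empty-virus library 3. Leaving out libraries of the joint fit of all 48 was not run. Counts of a few reads limit Dusp2 and Dusp9.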
